A study of Mus musculus with 15 samples.

Results

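The 84 genes for the proteins of the cytosolic ribosome were followed in mouse microglia after 1 dose of a TREM2 antibody, out of 32372 genes in the matrix of counts. The set was chosen with earlier results of these data known. Its genes were defined by symbol: Rpl or Rps followed by a number, Rplp0 to Rplp2, and Rpsa, without pseudogene names, hyphenated names and the S6 kinases. They comprised 43 proteins of the large subunit, 31 of the small subunit, 3 of the P stalk and 7 paralogs (Rpl22l1, Rpl7l1, Rps27l, Rpl36al, Rpl39l, Rpl3l and Rpl10l). Of these, 82 passed a filter on low counts. Rpl10l, with 0 UMIs in all libraries, and Rpl3l, with 7 UMIs, did not pass and are not counted below.

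Cells were enriched with CD45 beads from cortex and hippocampus of 15 male C57BL/6J mice aged 3.5 months, which all carried a human transferrin receptor knock-in (hTfR KI). Each mouse had received a single 10 mg/kg dose. ATV:4D9 is an antibody against TREM2, an activating receptor of microglia, on a transport vehicle that binds the transferrin receptor, and ATV:RSV carries a control antibody instead. The 5 groups of 3 mice comprised ATV:RSV mice taken at day 1 and ATV:4D9 mice taken at days 1, 7, 14 and 28, and each of 3 batches held 1 mouse of every group. All later days were compared with the same 3 ATV:RSV mice, so that day and treatment cannot be told apart after day 1. A further control animal named in the labels was not analysed here.

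A library held 5667 to 7596 cells and 32341960 to 70307384 UMIs (unique molecular identifiers, one per captured transcript). The median cell held 8202 to 8996 UMIs in the ATV:4D9 day 1 mice and 4694 to 6117 UMIs in all others. A list of 8 microglial markers summed to 18885 to 20243 CPM (counts scaled to a common total with TMM factors) in ATV:RSV mice and 13127 to 14555 CPM at ATV:4D9 day 1, and 99.9% of cells held at least 3 of these markers. Cells with 3 or more markers of 1 other cell type made up 0.43% to 1.42% of a library, highest at ATV:4D9 day 1. Summed monocyte markers were at 13.9 to 18.0 CPM at ATV:4D9 day 1 against 4.51 to 11.48 in ATV:RSV mice. Those of T cells (11.4 to 14.3 against 37.3 to 50.7 CPM), B cells, astrocytes, oligodendrocytes, neurons and endothelial cells were lower at ATV:4D9 day 1 than in every ATV:RSV mouse. Neutrophil markers reached 157 CPM in a day 7 mouse and at most 10.1 CPM in the other groups, and erythrocyte markers ran from 0.36 to 388 CPM over all mice. Without the cells that held markers of another type, the share of UMIs from ribosomal protein genes was 15.2% to 16.0% at ATV:4D9 day 1, 16.4% to 17.2% at day 7 and 12.4% to 13.05% in ATV:RSV mice. Cells with a UMI of the cell cycle genes Mki67 or Top2a made up 19.6% to 27.4% of cells at ATV:4D9 day 1 and at most 0.68% elsewhere. Mitochondrial transcripts took 4.12% to 4.61% of UMIs at ATV:4D9 day 1 and 3.43% to 3.72% in ATV:RSV mice, and with these left out of the total, ribosomal protein genes took 16.0% to 16.7% at ATV:4D9 day 1 and 12.9% to 13.6% in ATV:RSV mice.

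Ribosomal proteins are made in near-equal numbers, since each ribosome holds about the same set, and unused copies are degraded. Most of their mRNAs are abundant, stable and short, and begin at a cytosine within a run of pyrimidines (the 5′ terminal oligopyrimidine, or TOP, motif), through which the kinase mTOR and the RNA-binding protein LARP1 set their translation. Transcript levels, which are measured here, therefore say nothing of how much protein was made. In microglia, TREM2 signals through Syk toward growth and metabolism.

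Ribosomal protein transcripts took up a larger share of the microglial transcriptome after ATV:4D9, with the highest share at day 7 rather than at day 1. In the ATV:RSV mice they made up 13.1%, 12.8% and 12.4% of all UMIs (replicates 1, 2 and 3). At ATV:4D9 day 1 the share was 15.8%, 16.1% and 15.2%, and at day 7 it was 17.2%, 16.9% and 16.3%. It then stood at 15.7%, 14.7% and 14.4% at day 14 and at 13.8%, 13.3% and 12.7% at day 28. Every mouse of days 1, 7 and 14 lay above every ATV:RSV mouse, whereas day 28 overlapped with them.

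Against the ATV:RSV mean of 12.7% ± 0.35 (SD, n = 3), the share was 2.96 percentage points higher at day 1, 4.06 at day 7 and 2.21 at day 14 (exact two-sided permutation tests, p = 0.10 each, the smallest that 3 mice against 3 allow, adjusted p = 0.13 over the 4 days). At day 28 it was 0.55 points higher (exact permutation p = 0.30). Within batches the differences were 2.72 to 3.30 points at day 1, 3.97 to 4.11 at day 7, 1.94 to 2.66 at day 14 and 0.33 to 0.77 at day 28. Day 7 exceeded day 1 by 1.10 points, and by 0.81 to 1.38 within batches (exact permutation p = 0.10). An exact permutation of the 5 groups within batches gave p = 6.9e-05, the smallest that 14400 arrangements can give.

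Because day 1 cells held more UMIs, the absolute number of ribosomal protein UMIs per cell followed another order. It was 732 to 865 in ATV:RSV mice, 1353 to 1559 at day 1, 963 to 1092 at day 7, 880 to 1077 at day 14 and 805 to 920 at day 28. The mean at day 1 was thus 1.87 times that of ATV:RSV, and the mean at day 7 was 1.31 times. Counts per cell depend on both RNA content and capture, which cannot be told apart here.

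To compare cells at matched depth, each was thinned at random to 3385 UMIs, which left out 8.69% to 17.8% of cells in ATV:RSV mice, 3.93% to 5.79% at day 1 and 6.75% to 17.4% later. The mean ribosomal share per cell was then 12.2% to 12.9% in ATV:RSV mice, 15.1% to 15.7% at day 1, 16.1% to 17.4% at day 7, 14.5% to 15.7% at day 14 and 12.3% to 13.7% at day 28. The order of the groups was as for whole libraries. The difference from ATV:RSV was 2.75 points at day 1 and 4.26 at day 7 (exact permutation p = 0.10 each), and the 5 groups differed with p = 0.00035 by exact permutation within batches. The cells left out were not a random part. Median UMIs per cell in ATV:RSV mice were 3677 to 4388 in deposited cluster 1, described below, and 5852 to 6922 in cluster 0. Thinned to 2000 UMIs instead, the mean share was 12.4% in ATV:RSV mice, 15.2% at day 1 and 16.5% at day 7.

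In percentage points, the spread of the ribosomal share over cells was also widest at day 7, where the mean share was highest. The SD over matched cells was 5.18 to 5.26 points in the 3 day 7 mice, against 3.95 to 4.51 in ATV:RSV mice, 4.10 to 4.39 at day 1, 4.68 to 4.95 at day 14 and 4.11 to 4.58 at day 28. Day 7 overlapped with neither ATV:RSV nor day 1 (exact permutation p = 0.10 each, adjusted p = 0.20 against ATV:RSV), day 14 also lay wholly above ATV:RSV (exact permutation p = 0.10), and days 1 and 28 overlapped with it. The 10th percentile of cells moved from 7.62% to 7.87% in ATV:RSV mice to 9.45% to 10.9% at day 7, and the 90th from 17.5% to 19.0% to 23.0% to 24.2%. Both ends of the distribution were therefore higher. The SD was not scaled to the mean share. Its group mean was 4.17 points at a mean share of 12.6% in ATV:RSV mice, 4.23 at 15.4% at day 1 and 5.22 at 16.9% at day 7. By these group means, the SD relative to the mean share was no wider at day 7 than in ATV:RSV mice, though wider than at day 1. The relative spread was not tested.

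At day 1, the share was as high without the cycling cells as with them. Among matched cells, those with a Mki67 or Top2a UMI left after thinning had a mean share of 14.8%, 14.8% and 14.3%, and those without had 15.5%, 15.9% and 15.2%. Thinning leaves fewer cells with such a UMI (796 of 6838 matched cells in replicate 1, for example), so that the second set holds many cells counted as cycling at full depth. The first set was lower in 3 of 3 mice, and without all cells that had such a UMI at full depth the day 1 share of whole libraries was 15.9%, 16.3% and 15.4%.

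**Figure D1:**
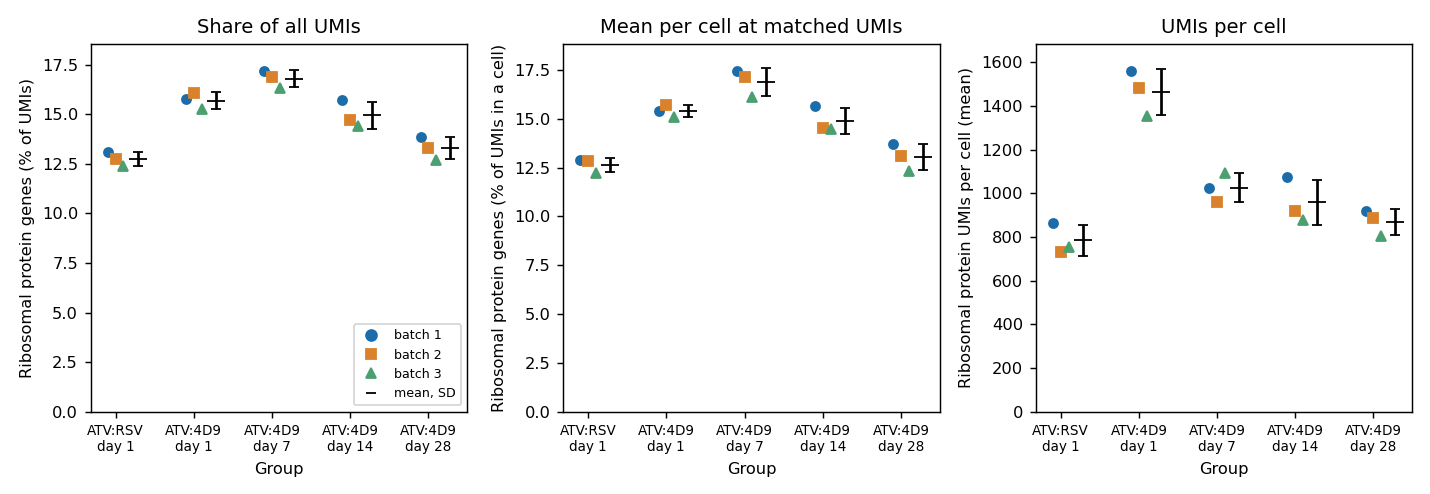
Ribosomal protein genes by mouse: percent of all UMIs of the library (left), mean percent per cell after thinning to equal UMIs (middle) and mean UMIs per cell (right), for 5 groups of 3 mice. Points are mice, shaped by batch, with the mean and SD beside them. The shares are highest at day 7, from 16.3% to 17.2% of the library and from 16.1% to 17.4% per cell after thinning. UMIs per cell are highest at day 1, from 1353 to 1559.

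Gene by gene, the rise at day 1 was uneven, and the rise at day 7 was nearly uniform. At day 1, 74 of 82 members were called higher and 0 lower than in ATV:RSV (limma-voom on UMIs summed per mouse, Benjamini-Hochberg adjusted p under 0.05 over all 14260 genes tested), with a median log2 fold change of 0.59 and a range of -0.31 to 1.68. In that comparison 69.2% of all genes were called and 34.7% were called higher, with a median of -0.05 over all genes. At day 7, 78 of 82 members were called higher, with a median of 0.48 and a range of -0.0028 to 0.71, where 3.98% of all genes were called and 2.99% were called higher. Members made up 18.3% of the 426 genes that rose at day 7, and 74 of the 4942 that rose at day 1. All 3 mice lay above all 3 ATV:RSV mice for 72 members at day 1 and for 79 at day 7, against 35.7% and 11% of all genes. The spread of log2 fold changes over members (SD) was 0.38 at day 1 and 0.11 at day 7.

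By day 14, 43 members were called higher with a median of 0.27. They were most of what limma-voom still called at all: 57 genes, 0.4% of those tested, of which 55 were higher, 0.386% of those tested. DESeq2 called 132 genes at this day, so that this is said of the limma-voom calls alone. The number of members called was unstable at this day. It was 0 without ATV:4D9 day 14 replicate 1, 23 without replicate 2 of that group, 13 without ATV:RSV replicate 3, and 73 with batch as a block. It was 12 after scaling by library size alone and 12 after thinning cells to equal UMIs. With all mice, 81 of 82 members had a positive log2 fold change. All 3 mice lay above all 3 ATV:RSV mice for 65 of 82, which held for 5.29% of all genes. As the members come from the same libraries, these counts are not independent.

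At day 28, 0 members and 0% of all genes were called by limma-voom. At an unadjusted p under 0.05 it counted 4 of 82 members and 4.00% of all genes, and edgeR and DESeq2 also called 0 members. The log2 fold change was positive for 81 of 82 members, with a median of 0.08, and 21 members lay wholly above the ATV:RSV mice, against 4.59% of all genes. These counts are over genes of the same libraries, which tend to shift together, so that they are not separate evidence of a rise. The share of UMIs at this day overlapped with ATV:RSV (exact permutation p = 0.30).

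Both subunits shared this course. At day 1, 40 of 43 large subunit genes and 26 of 31 small subunit genes rose, with medians of 0.56 and 0.55. At day 7, 43 of 43 and 31 of 31 rose, with medians of 0.48 and 0.51, and at day 14 it was 23 and 18, with medians of 0.27 and 0.28. Of all genes, 34.7% rose at day 1, 2.99% at day 7 and 0.386% at day 14. The 3 stalk genes and the paralogs differed more among themselves and are described below.

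The day 1 values depended on the scaling. Scaled by library size alone rather than by TMM, which centres on the bulk of genes, the median of all genes moved from -0.05 to -0.29 and that of the members from 0.59 to 0.35, with 59 members called higher and 6 lower, among them Rps27, Rps9, Rpl10, Rps4x and Rpl30 (the latter named after its value was seen), where 74.7% of all genes were called. The members thus stood about as far above the median gene on either scale. At day 7 the median of the members moved from 0.48 to 0.39 and that of all genes from -0.0049 to -0.10, so that by library size alone the members' median was higher at day 7 than at day 1. After thinning cells to equal UMIs it was 0.53 at day 1 and 0.52 at day 7.

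**Figure D2:**
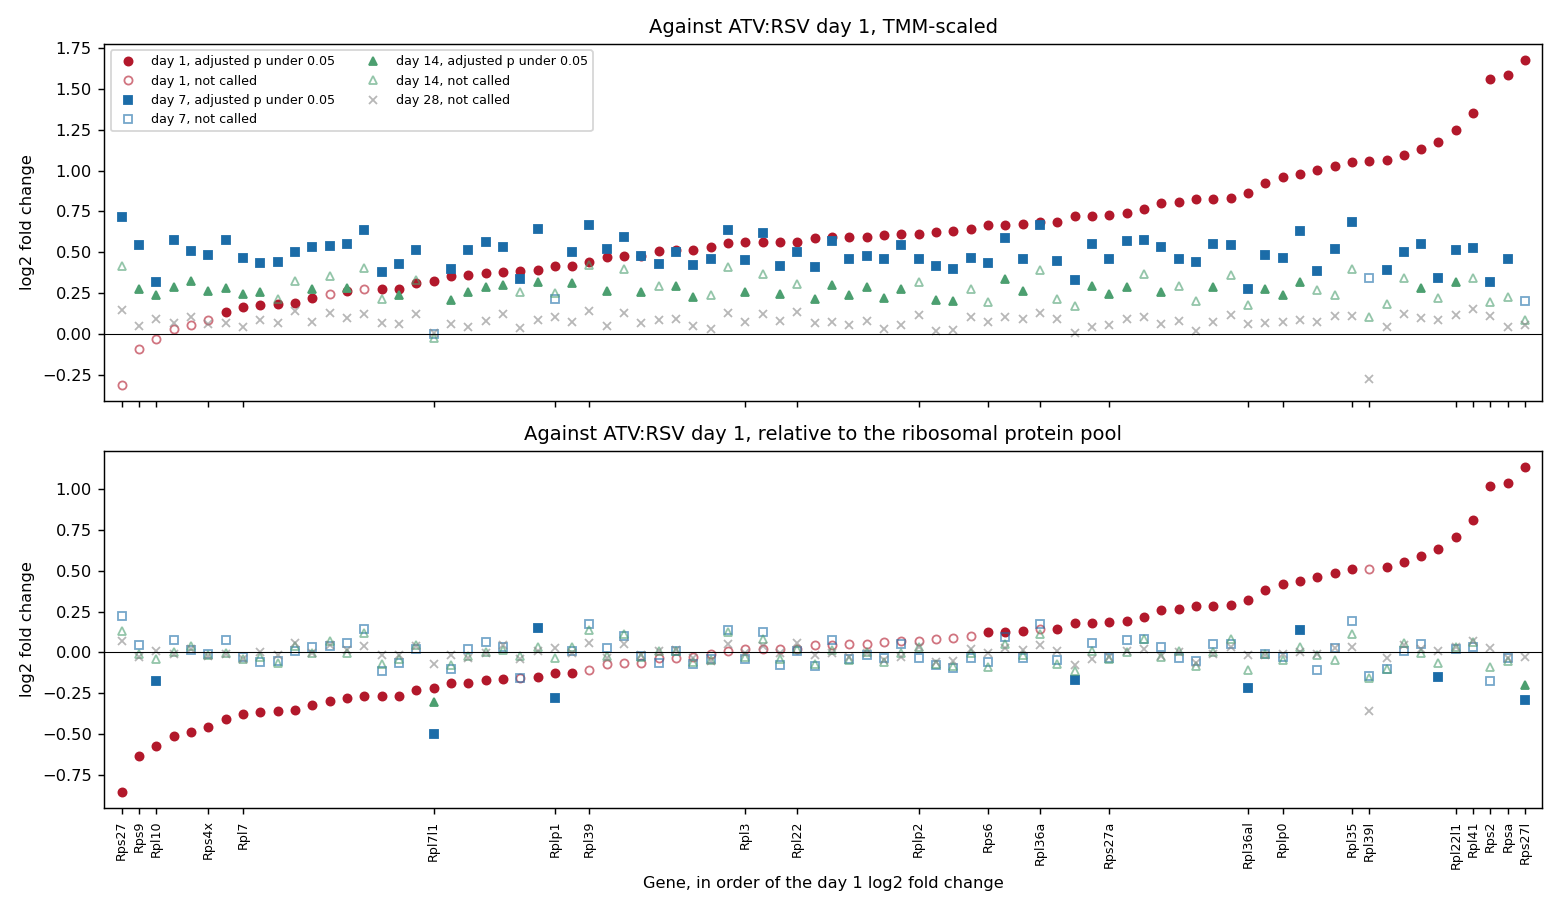
Log2 fold change against ATV:RSV day 1 for each of the 82 members tested, in the order of the day 1 value, on the TMM scale (top) and relative to the ribosomal protein pool (bottom). Filled symbols passed an adjusted p under 0.05, and labels mark genes named by rule. Day 1 climbs from -0.31 for Rps27 to 1.68 for Rps27l, while day 7 stays near its median of 0.48 for most genes.

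To find subunits that departed from the rest, the counts were fitted again with the summed ribosomal protein UMIs of each mouse as library size. A fold change is then relative to the ribosomal protein pool, so that a departure of 1 gene is offset by the others. Other genes shift down on this scale where the pool rises: their median, over all genes tested, was -0.59 at day 1, -0.50 at day 7 and -0.29 at day 14. The percentages of all genes called below follow from that shift and are no base rate for the members. Adjustment ran over all genes tested, so that the threshold for members was looser on days with more calls. Counts of different days are thus not strictly alike. At day 1, 30 members were called above the pool and 26 below it, 68.3% of the 82, with 79.4% of all genes departing from the pool, mostly downward. At day 7 only 9 members departed, 2 upward and 7 downward, where 75.2% of all genes did. At day 14 it was 0 upward and 2 downward, with 53.8% of all genes called, and at day 28 it was 0 with 0% of all genes and, at an unadjusted p under 0.05, 0 members and 8.53% of all genes. With batch as a block, the counts were 8 upward and 15 downward at day 7, and 0 and 7 at day 14. Without ATV:RSV replicate 1, the count was 20 at day 7 and 5 at day 14, and at day 14 it was 1 without ATV:4D9 day 14 replicate 1 or without ATV:RSV replicate 3.

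Among small subunit genes, Rpsa and Rps2 had the largest gains at day 1. Rpsa, which encodes the protein SA, also known as the laminin receptor (ENSMUSG00000032518.6, chr9:120127689-120132369, mm10), stood at 1019, 1140 and 1115 CPM in ATV:RSV mice and at 3070, 3268 and 3465 CPM at day 1. It was at 1476, 1503 and 1517 CPM at day 7, 1283, 1264 and 1285 at day 14, and 1169, 1104 and 1099 at day 28. The day 1 mice were far above all others, and from day 7 on Rpsa took about the control part of the pool.

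The log2 fold change of Rpsa was 1.58 ± 0.05 (SE) at day 1 (limma-voom adjusted p = 5.4e-13) and 0.46 at day 7 (adjusted p = 3.5e-05). Its part of the pool rose from 0.82% to 0.95% in ATV:RSV mice to 1.76% to 2.00% at day 1, a log2 difference of 1.04 (adjusted p = 8.4e-10), and was 0.84% to 0.92% at day 7, a log2 difference of -0.04 (adjusted p = 0.64).

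Rps2, whose protein lies near the mRNA entry of the small subunit (ENSMUSG00000044533.15, chr17:24718116-24721929), followed the same course. It stood at 827, 898 and 842 CPM in ATV:RSV mice, at 2369, 2420 and 2788 at day 1 and at 984, 1066 and 1154 at day 7. The day 1 mice were far above those of both other groups. Its log2 fold change was 1.56 ± 0.06 at day 1 (adjusted p = 9.2e-12) and 0.32 at day 7 (adjusted p = 0.010).

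Rps27 and Rps9 lay at the other end. Rps27, a zinc-finger protein of the small subunit (ENSMUSG00000090733.6, chr3:90212522-90213651), stood at 1820, 1244 and 1374 CPM in ATV:RSV mice and at 1287, 1204 and 1055 at day 1. It was at 2625, 2293 and 2286 CPM at day 7 and at 2488, 1854 and 1593 at day 14. The day 1 mice overlapped with the controls and the day 7 mice were all above them.

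Its log2 fold change at day 1 was -0.31 ± 0.15 (adjusted p = 0.071), which passed the threshold with batch as a block (replicate block, -0.31 ± 0.08, adjusted p = 0.0042). At day 7 it was 0.71 ± 0.15 (adjusted p = 0.0095), the highest of all members. As a part of the pool, Rps27 fell from 1.04% to 1.47% in ATV:RSV mice to 0.61% to 0.74% at day 1, a log2 difference of -0.85 (adjusted p = 5.6e-06), and was 1.35% to 1.50% at day 7. Rps27rt, a separate gene row with the name of an Rps27 copy, had a log2 fold change of -0.50 ± 0.16 at day 1 (adjusted p = 0.013). Reads of the 2 genes may not be separable, and Rps27rt held 19045 UMIs against 1190635 of Rps27.

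Rps9, a small subunit protein (ENSMUSG00000006333.14, chr7:3703993-3706897), stood at 2350, 2559 and 2430 CPM in ATV:RSV mice, at 2210, 2365 and 2318 at day 1 and at 3569, 3623 and 3490 at day 7. Its mice at day 1 overlapped with the controls while those of day 7 were all higher. The log2 fold change was -0.09 ± 0.04 at day 1 (adjusted p = 0.065, or 0.040 with batch as a block) and 0.54 ± 0.04 at day 7 (adjusted p = 1.4e-06). Its part of the pool fell from a mean of 2.03% to 1.31% at day 1 (log2 difference -0.63, adjusted p = 2.6e-08) and was 2.10% at day 7.

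The remaining small subunit genes of known special role moved between these ends. Rps4x, the X-linked copy of S4, was at 2213 ± 123 CPM in ATV:RSV mice, 2350 ± 65.9 at day 1 and 3088 ± 20.5 at day 7 (SD, n = 3), and only the latter was called (adjusted p = 0.078 and 4.2e-06). Rps6, the phosphorylation target of the S6 kinases, rose by 0.67 ± 0.04 at day 1 and by 0.43 ± 0.04 at day 7 on the log2 scale (adjusted p = 1e-09 and 8.7e-06). Rps27a, whose protein is made as a fusion to ubiquitin, rose by 0.73 ± 0.04 and 0.46 ± 0.04 (adjusted p = 1.4e-10 and 3.2e-06). Apart from Rps27, Rps9 and Rps4x, the small subunit genes not called at day 1 were Rps29 and Rps21, named after their values were seen, with log2 fold changes of 0.24 and 0.27 (adjusted p = 0.10 and 0.075, or 0.0092 and 0.0039 with batch as a block).

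Among large subunit genes, Rpl41 gained most at day 1, and the 3 that did not pass the test included Rpl10 and Rpl30 (the latter named after its value was seen, log2 fold change 0.05, adjusted p = 0.41). Rpl41, which encodes a basic peptide of the ribosome (ENSMUSG00000093674.7, chr10:128548114-128549305), stood at 1371, 1041 and 1037 CPM in ATV:RSV mice, at 3015, 3022 and 2709 at day 1 and at 1787, 1622 and 1525 at day 7. All 3 day 1 mice were far above those of both other groups. The log2 fold change was 1.35 ± 0.11 at day 1 (adjusted p = 2e-08) and 0.52 ± 0.11 at day 7 (adjusted p = 0.012).

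Rpl10, which joins the large subunit late in its assembly (ENSMUSG00000008682.13, chrX:74270812-74273135), stood at 1557, 1678 and 1628 CPM in ATV:RSV mice and at 1566, 1602 and 1597 at day 1, so that the groups overlapped. At day 7 it was at 2006, 1968 and 2091 CPM, above all controls. Its log2 fold change was -0.03 ± 0.04 at day 1 (adjusted p = 0.54) and 0.32 ± 0.04 at day 7 (adjusted p = 0.00013), and relative to the pool it was lower on both days, by -0.57 and -0.18 (adjusted p = 1.4e-07 and 0.012).

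Other large subunit genes of special role rose on both days. Rpl3, at the peptidyl transferase centre, rose by 0.56 ± 0.05 at day 1 and 0.45 ± 0.05 at day 7, and Rpl22 rose by 0.56 ± 0.06 and 0.50 ± 0.06. Rpl7 rose by 0.17 ± 0.04 at day 1 (adjusted p = 0.0028), a value that turned to -0.07 when scaled by library size alone, and by 0.46 ± 0.04 at day 7 (adjusted p = 6.3e-06). Rpl35 and Rpl36a, the next highest at day 7 after Rps27, rose by 0.68 ± 0.12 and 0.67 ± 0.11 (adjusted p = 0.0037 and 0.0024) and had risen by 1.05 ± 0.12 and 0.69 ± 0.11 at day 1. Rpl39 rose by 0.44 ± 0.13 and 0.67 ± 0.13 on those days (adjusted p = 0.0073 and 0.0069), and its day 1 value was 0.20 by library size alone (adjusted p = 0.17).

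The 3 proteins of the P stalk, which recruits translation factors to the large subunit, gained by different amounts. Rplp0, the base of the stalk, stood at 1413, 1535 and 1555 CPM in ATV:RSV mice, at 2774, 2904 and 3088 at day 1 and at 2035, 2078 and 2095 at day 7. Rplp1 stood at 4902, 4665 and 4416 CPM in ATV:RSV mice, at 6365, 6259 and 6041 at day 1 and at 5687, 5364 and 5202 at day 7. Both were above all controls at both days, and Rplp0 gained more than Rplp1.

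Rplp0 rose by 0.96 ± 0.05 at day 1 and by 0.46 ± 0.05 at day 7 on the log2 scale (adjusted p = 3.9e-11 and 1e-05). Rplp1 rose by 0.42 ± 0.06 at day 1 (adjusted p = 9.9e-06), while its value of 0.22 ± 0.06 at day 7 missed the threshold (adjusted p = 0.051, or 0.00063 with batch as a block). As a part of the pool Rplp1 was lower, from 3.77% to 3.95% in ATV:RSV mice to 3.16% to 3.25% at day 7 (log2 difference -0.28, adjusted p = 5.8e-05). Rplp2 rose by 0.61 ± 0.10 and 0.46 ± 0.10 (adjusted p = 3e-05 and 0.011) and did not depart from the pool on either day (adjusted p = 0.36 and 0.66).

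The paralogs are close relatives of genes of both subunits. Rps27l, a close relative of Rps27 known as a p53 target (ENSMUSG00000036781.13, chr9:66946086-66949516), stood at 139, 117 and 126 CPM in ATV:RSV mice, at 403, 402 and 412 at day 1 and at 159, 144 and 136 at day 7. It was at 143, 138 and 124 CPM at day 14 and at 139, 123 and 134 at day 28. The day 1 mice stood clear of all others, and the other 4 groups overlapped.

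Its log2 fold change of 1.68 ± 0.07 at day 1 was the highest of all members (adjusted p = 1.5e-11), at the time when Rps27 was lowest of all. At day 7 the order was the other way, with 0.20 ± 0.07 for Rps27l (adjusted p = 0.17). Relative to the pool Rps27l was higher at day 1 and lower at day 7 and day 14, by 1.13, -0.29 and -0.20 on the log2 scale (adjusted p = 1.2e-10, 0.00064 and 0.018).

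Rpl22l1, the paralog of Rpl22 (ENSMUSG00000039221.10, chr3:28805436-28807424), stood at 217, 202 and 201 CPM in ATV:RSV mice, at 459, 519 and 499 at day 1 and at 306, 288 and 291 at day 7. Its mice at both days were above all controls. It rose by 1.25 ± 0.05 at day 1 and by 0.51 ± 0.05 at day 7 (adjusted p = 7.9e-12 and 1.3e-05), and was above the pool at day 1 (0.71, adjusted p = 4.8e-09) but not at day 7 (0.02, adjusted p = 0.77).

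Rpl7l1, a relative of Rpl7 with a part in large subunit assembly (ENSMUSG00000063888.7, chr17:46773907-46782672), was the one member whose log2 fold change at day 7 was not positive. It stood at 91.2, 88.6 and 88.0 CPM in ATV:RSV mice, at 113, 110 and 113 at day 1, at 89.2, 85.4 and 92.6 at day 7 and at 90.1, 88.7 and 85.0 at day 14. Among these groups it was above all controls only at day 1. It rose by 0.32 ± 0.04 at day 1 (adjusted p = 4e-06), a value of 0.083 by library size alone (adjusted p = 0.069), and at day 7 its log2 fold change was -0.0028 ± 0.04 (adjusted p = 0.99). Relative to the pool it was lower by -0.22 at day 1, -0.50 at day 7 and -0.31 at day 14 (adjusted p = 0.0026, 4.1e-06 and 0.0020).

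Rpl36al, a near-identical relative of Rpl36a, rose by 0.86 ± 0.05 at day 1 and by 0.28 ± 0.05 at day 7 (adjusted p = 4.2e-10 and 0.0043), and relative to the pool was higher at day 1 and lower at day 7 (0.32 and -0.22, adjusted p = 2.8e-05 and 0.0013). Rpl39l, at 1.69 to 4.68 CPM in ATV:RSV mice, rose by 1.06 ± 0.45 at day 1 (adjusted p = 0.048, or 0.11 by library size alone), and its levels varied widely between control mice. The members that departed downward at day 7 included Rpl7l1, Rps27l, Rplp1, Rpl36al, Rpl10 and Rpl8, and those that departed upward were Rpl23 and Rpl32, of which Rpl8, Rpl23 and Rpl32 are named after their values were seen.

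**Figure D3:**
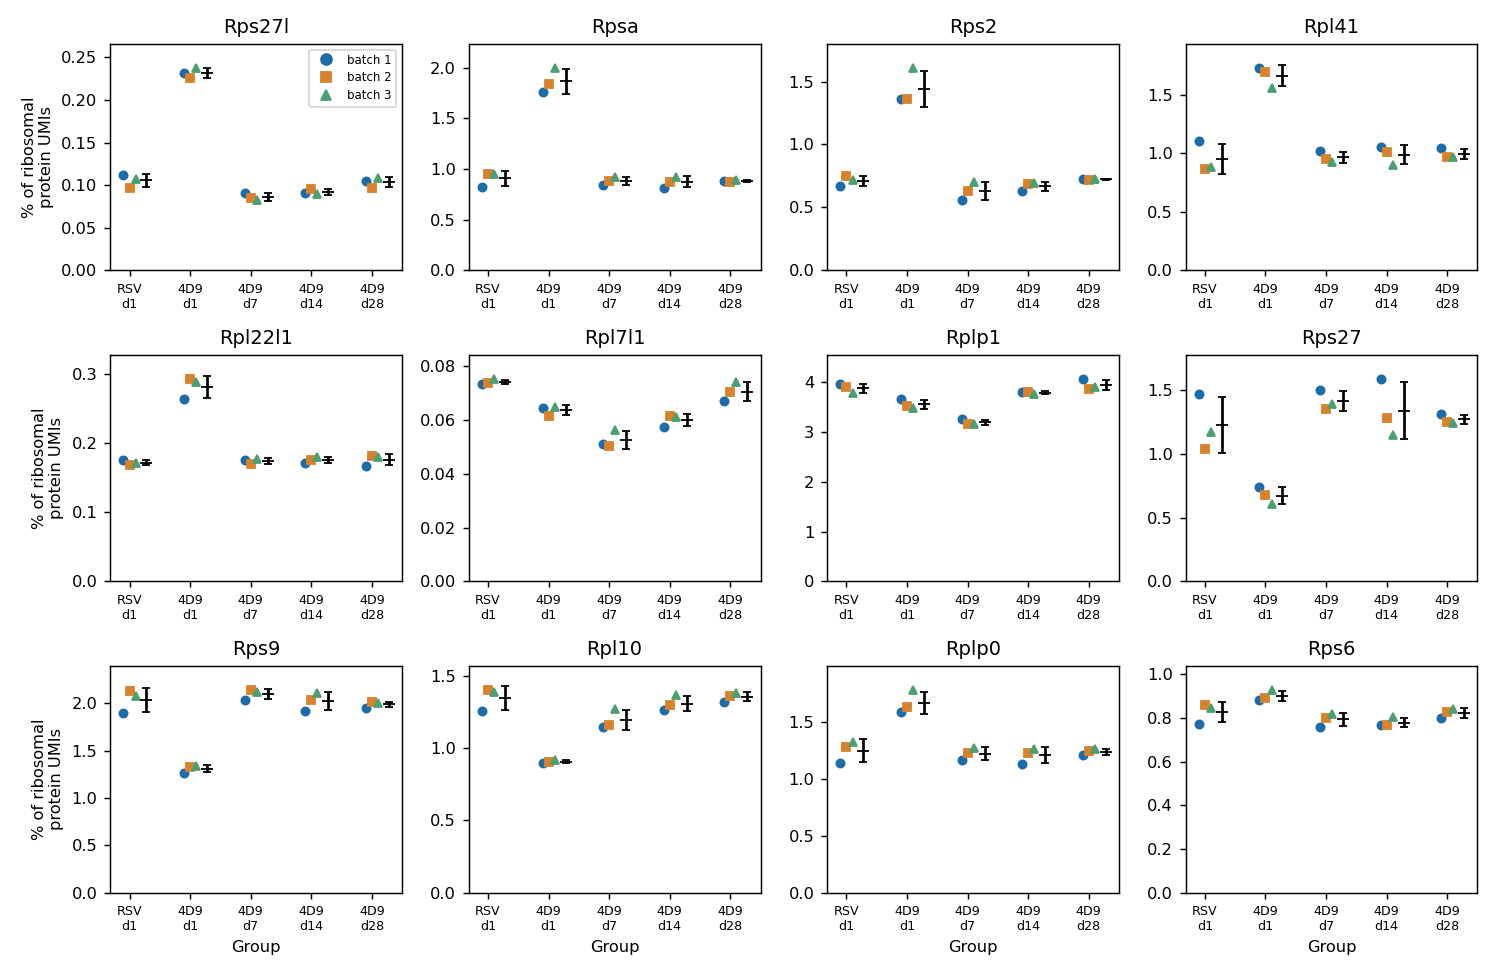
Part of the ribosomal protein UMIs taken by each of 12 members, in percent, by mouse and group, with batches as symbols and the mean and SD beside the points. Rps27l, Rpsa, Rps2, Rpl41 and Rpl22l1 stand out upward at day 1 only, Rps27, Rps9 and Rpl10 downward at day 1, and Rpl7l1 and Rplp1 are lowest at day 7.

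The difference between day 7 and day 1 was itself tested. Of 82 members, 20 were higher and 38 lower at day 7 than at day 1. The part of members called was near the 66.9% of all genes called in this comparison. After scaling by library size alone the split was 29 higher and 23 lower, where 69.3% of all genes were called. After thinning cells to equal UMIs it was 25 and 26, with 62.5% of all genes called. Relative to the pool it was 24 and 31, where 65.1% of all genes were called. Rps27 gained most from day 1 to day 7 (1.02 ± 0.15, adjusted p = 1.3e-05), and Rps27l lost most (-1.48 ± 0.07, adjusted p = 6.7e-11).

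Start-site sequences of 8 members are shown because the TOP motif is what most genes of the group are known to share, and these members range from the lowest to the highest day 1 response. Each is the stretch of 30 bases from 10 before the annotated start, 5′ to 3′ on the gene's strand, from RefSeq on GRCm38.p6, with the letters CTTTC in capitals where they occur. Rps27l has 2 annotated starts, of which the first is shown, and the others have 1. An annotated start may not be the one used in these cells, and that of Rps2 lies well inside its gene interval given above, so that its window may hold no start at all. The windows of Rps9, Rpsa, Rpl22l1 and Rpl7l1 also lie wholly inside their gene intervals, though nearer to the 5′ end.
Rps27 (chr3:90213629-90213658, minus strand): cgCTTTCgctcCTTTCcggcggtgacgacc
Rps9 (chr7:3704031-3704060, plus strand): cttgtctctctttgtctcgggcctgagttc
Rps6 (chr4:86857348-86857377, minus strand): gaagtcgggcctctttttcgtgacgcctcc
Rpsa (chr9:120127756-120127785, plus strand): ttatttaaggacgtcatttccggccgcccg
Rps2 (chr17:24720053-24720082, plus strand): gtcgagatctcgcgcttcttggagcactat
Rpl22l1 (chr3:28805498-28805527, plus strand): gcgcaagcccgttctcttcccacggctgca
Rps27l (chr9:66946076-66946105, plus strand): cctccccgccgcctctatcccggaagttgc
Rpl7l1 (chr17:46782637-46782666, minus strand): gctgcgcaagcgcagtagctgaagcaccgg

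Of these only Rps27 holds CTTTC, while Rps9, Rps6, Rpl22l1 and Rps27l are among those with other pyrimidine runs in the window. Over the 64 members with a RefSeq entry, 15 held CTTTC in this window, or 23.4%, against 4.43% of all 27025 genes. On the other strand (GAAAG) it was 4.69% of members and 4.31% of all genes. The 15 members with the letters had a median log2 fold change of 0.61 at day 1 and 0.50 at day 7, and the 47 tested members without them had 0.56 and 0.48. The ranges overlapped at both days, from -0.31 to 1.10 against -0.09 to 1.68 at day 1. The letters CTTTC are narrower than the TOP motif, which is a cytosine within any run of pyrimidines. Members without them may thus have TOP mRNAs, and these values do not compare members with and without a TOP motif.

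The deposited cell table places cells in clusters 0, 1 and 2, and the ribosomal share was compared between mice within each cluster. The clusters were built from expression of the same cells, so they are not independent of it. Cluster 2 held 5607 to 6597 cells per mouse at ATV:4D9 day 1 and 74 to 245 cells per mouse in all other groups. Only 180 to 555 cells per mouse lay in each of clusters 0 and 1 at ATV:4D9 day 1.

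The rise at day 7 was present in each cluster and largest in cluster 1. In cluster 1 the share was 12.8%, 12.9% and 12.6% in ATV:RSV mice, and 18.4%, 18.2% and 18.2% at day 7, a difference of 5.52 points. In cluster 0 it was 13.2%, 12.7% and 12.2% in ATV:RSV mice and 16.7%, 16.4% and 15.5% at day 7, a difference of 3.48 points. In cluster 2 it was 14.0%, 13.7% and 12.98% against 16.3%, 16.4% and 15.8%, a difference of 2.59 points.

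The groups did not overlap in any of these 3 comparisons (exact permutation p = 0.10 each). Differences within batches ran from 5.27 to 5.68 points in cluster 1, from 3.24 to 3.69 in cluster 0 and from 2.29 to 2.83 in cluster 2. The gap between clusters was not tested. At day 14 the share was still 3.08 points higher in cluster 1, 1.89 in cluster 0 and 1.38 in cluster 2 (exact permutation p = 0.10 each), and at day 28 it was 0.96 points higher in cluster 1 (exact permutation p = 0.10) and 0.40 in cluster 0 (exact permutation p = 0.40). With cells thinned to equal UMIs the day 28 mice overlapped with the ATV:RSV mice in cluster 1, at 12.98% to 14.2% against 12.5% to 13.7%, a difference of 0.48 points (exact permutation p = 0.40). In cluster 2 the day 28 difference was -0.18 points (exact permutation p = 0.70), and 0.027 without ATV:RSV replicate 1.

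At day 1, by contrast, the share was above that of ATV:RSV mice in cluster 2 alone, which held most day 1 cells. There the share was 16.1%, 16.2% and 15.4%, 2.31 points above ATV:RSV cells of the same cluster (exact permutation p = 0.10). Those ATV:RSV cells numbered 76 to 165 per mouse. As cells were placed in clusters by their expression, the contrast between clusters at day 1 is not independent of that placing. The few cells of cluster 0 had 12.6%, 12.5% and 11.2%, and those of cluster 1 had 11.8%, 12.8% and 12.1%, which overlapped with the ATV:RSV mice (differences of -0.60 and -0.53 points, exact permutation p = 0.40 and 0.30).

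Gene by gene within clusters, 79 of 82 members rose at day 7 in cluster 1 (median 0.64, with 5.76% of all genes called), 72 in cluster 0 (median 0.40, 4.28%) and 28 of 81 in cluster 2 (median 0.29, 0.693%), and none fell. At day 14, 79 members rose in cluster 1 (median 0.38, 1.18%), against 8 in cluster 0 (0.22, 0.113%) and 0 in cluster 2 (0.17, 0%). In cluster 2 at day 14 all 81 log2 fold changes were positive, from counts of 74 to 165 cells per mouse, though genes of the same libraries are not independent.

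Part of the uneven pattern of day 1 was also seen in the few day 1 cells of clusters 0 and 1. Values of Rps27, Rpl41 and Rpl22l1 in these clusters are not given here. In cluster 1 at day 1, 12 members were called higher and 20 lower, with a median of -0.08 (9.18% of all genes called), and in cluster 0 it was 6 and 10, with a median of -0.03 (5.09%). Rpsa was higher by 0.67 in cluster 1 and by 0.54 in cluster 0 (adjusted p = 1.7e-06 and 2e-06), Rps2 by 0.58 and 0.40 (adjusted p = 3.9e-05 and 0.00032) and Rps27l by 0.54 and 0.47 (adjusted p = 0.00036 and 0.031). Rps9 was lower by -0.45 and -0.37 (adjusted p = 2.7e-05 and 0.00017) and Rpl10 by -0.45 and -0.32 (adjusted p = 3.1e-05 and 0.00068). In cluster 2 at day 1, 61 members were higher and 1 lower (36.8% of all genes called), with Rpsa at 0.86 and Rps27 at -0.35 (adjusted p = 3.1e-07 and 0.022).

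**Figure D4:**
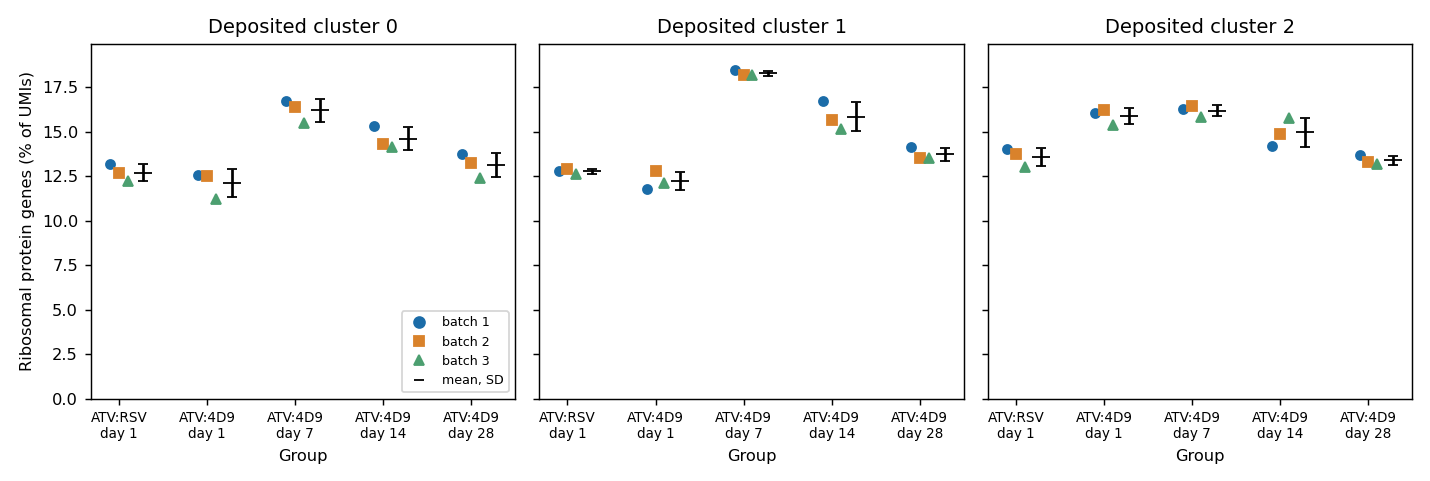
Ribosomal protein genes as percent of UMIs within each deposited cluster, by mouse and group, with batches as symbols and the mean and SD beside the points. At day 7 the 3 mice are above the ATV:RSV mice in every cluster, from 18.2% to 18.4% in cluster 1, while at day 1 only cluster 2 is above them.

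Precision was not equal across members. The 11 members with a coding length of up to 300 bases, a limit set after the values were seen, had a median within-group SD of 0.19 on the log2 CPM scale, against 0.053 for the 71 longer members tested. Over the 82 members the SD and the coding length were correlated with a Spearman rho of -0.72 and a Pearson r of -0.60 on log2 length, across genes of the same 15 libraries and given without a test. The coding length and the day 1 fold change were not closely related (rho -0.10).

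The short members shared a batch pattern. Their mean deviation from the group mean was highest in the batch 1 mouse in 5 of 5 groups, by 0.09 to 0.34, and the batch 3 mouse lay at -0.31 to -0.09. For the longer members the deviations were -0.05 to 0.07 over all mice. At day 14, 0 of 11 short members and 43 of 71 longer members were called, although the median log2 fold change was 0.37 in the first and 0.27 in the second. Of all genes, 0.4% were called at that day. With batch as a block, 30 more members were called at that day, where 0.86% of all genes were called. Among these members were Rps27, Rpl39, Rpl41 and Rpl36a (adjusted p = 0.032, 0.0087, 0.010 and 0.0062), and also Rps6, Rpl22, Rplp1, Rplp2 and Rpsa. The cause of the batch pattern was not tested.

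**Figure D5:**
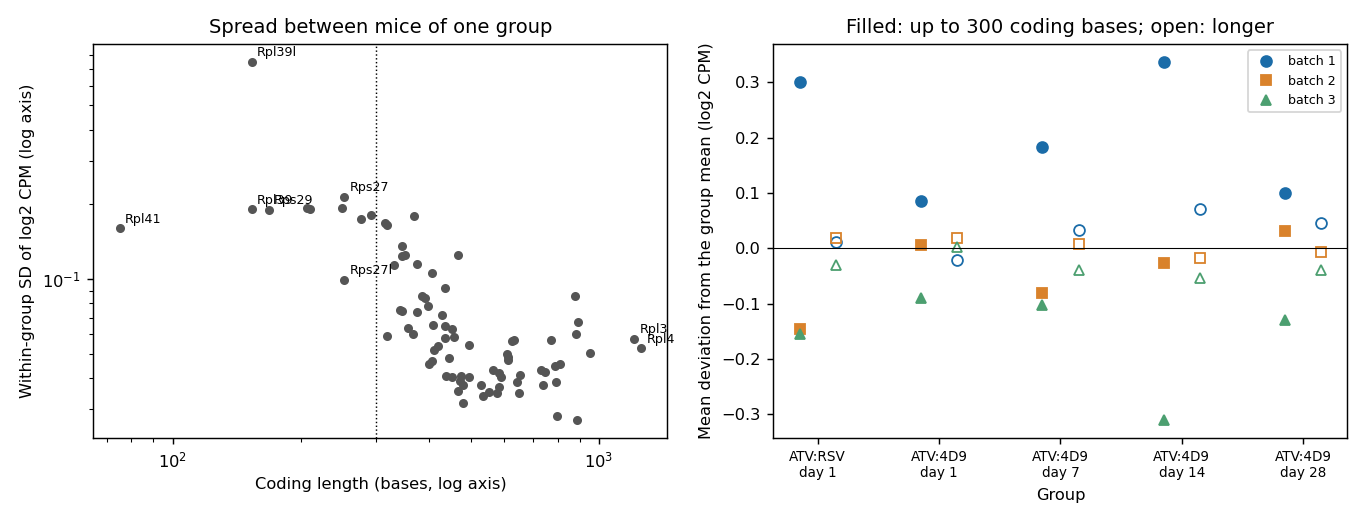
Left, within-group SD of log2 CPM against coding length for the 82 members tested, on log axes, with the dotted line at 300 bases. Right, mean deviation of each mouse from its group for the 11 members up to 300 bases (filled) and the 71 longer ones (open), with the batch 1 mouse highest among the filled symbols in all 5 groups.

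Of 22 other genes known for TOP mRNAs, mainly translation factors, 19 rose and 2 fell at day 1 (median log2 fold change 0.54), 18 rose at day 7 (median 0.36) and 5 at day 14 (median 0.19), against 34.7%, 2.99% and 0.386% of all genes that rose on those days. Their median lay below that of the ribosomal protein genes at each of these days. Without ATV:4D9 day 14 replicate 1, 0 of all genes were called at day 14, so that the 5 calls of that day were lost. Eef1a1, an elongation factor, rose by 0.13 at day 1 and 0.42 at day 7 (adjusted p = 0.0028 and 2.3e-06), and Tpt1 fell by 0.17 at day 1 and rose by 0.40 at day 7 (adjusted p = 0.0013 and 1.3e-05). Fau, whose protein is a fusion that yields a further small subunit protein, had a log2 fold change of 0.0024 at day 1 and rose by 0.54 at day 7 (adjusted p = 0.97 and 4.2e-06). Rack1, a scaffold on the small subunit, rose by 0.81 and 0.44 (adjusted p = 1.3e-09 and 7e-05). Eef1g, named after its value was seen, also rose more at day 1 than at day 7, by 1.77 and 0.28 (adjusted p = 3.1e-14 and 0.00056).

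The 16 escort and assembly factors of ribosomal subunits were called at day 1 and not at day 7. At day 1, 12 rose and 4 fell (median 0.82, with 69.2% of all genes called), among them Rrs1 and Grwd1 with 1.71 and 1.70, and 0 were called at day 7 (3.98% of all genes), where the median was 0.03. The 4 that fell were Sbds, Efl1, Pdcd2l and Nop53, by 0.27 to 0.43. Of these 16 factors, 16 differed between day 7 and day 1, with 12 lower at day 7, in the comparison that called 66.9% of all genes.

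Of 19 tested genes for S6 kinases, mTOR and other regulators, 5 rose and 7 fell at day 1, so that 12 of 19 were called against 69.2% of all genes. The S6 kinases Rps6kb1 and Rps6kb2 fell by 0.20 and 0.33 (adjusted p = 0.0053 and 0.0012), and the related kinases Rps6ka1 and Rps6ka3 fell by 0.60 and 0.40 (adjusted p = 2.1e-08 and 0.00044). Eif4ebp1, a translation repressor under mTOR, rose by 1.06, and Pdcd4, a repressor that S6 kinase marks for decay, fell by 1.46 (adjusted p = 3.7e-08 and 3.7e-10). Larp1 and Mtor rose by 0.52 and 0.33 (adjusted p = 5.5e-08 and 0.00028). Rptor, the partner of mTOR in its complex 1, and Tsc1, which restrains it, fell by 0.60 and 0.61 (adjusted p = 1.5e-08 and 6.6e-05). At day 7 only Myc was called among the 19, with a fall of 0.63 (adjusted p = 0.042), against 3.98% of all genes.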

How the data were processed

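The authors mapped 3′ single-cell reads to mm10 with Cell Ranger (4.0.0 in the submitters' processing notes, other versions in the study's methods) and analysed cells in Seurat. They deposited raw UMI counts for every gene in every cell, and a table with the total, the percent of mitochondrial UMIs and the cluster of each cell. Filters on cells are not given in the sources used here. All 102043 cells were kept and no doublet caller was run. Of 100747 distinct barcodes, 1.27% occurred in more than 1 library, and no replicates agreed within sampling noise over the members' counts.

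Per mouse, counts were summed, filtered (filterByExpr, minimum count 10, minimum total count 15) and fitted over all 15 mice with limma-voom in R 4.3.3, using limma 3.58.1 and edgeR 4.0.16, with Benjamini-Hochberg adjustment over 14260 genes. An SE belongs to a log2 fold change. Scripts were tested on simulated data. Batches come from the labels and pair the mice, as each held 1 mouse of every group. Over all genes, deviations of same-batch mice from their group means correlated by 0.07 on average (-0.22 to 0.26), against -0.03 between batches. Over the members the correlation was 0.35 on average (-0.72 to 0.96), against -0.18. Deviations cancel within a group, so that the values between batches follow from those within batches and are no separate evidence. Positions are from GENCODE M21 on mm10. Reads shared by near-identical copies make the counts of such members uncertain. The limma-voom p-values rest on the spread between mice within groups, estimated over all 5 groups together and moderated over genes. The main fit does not use the pairing by batch. The exact permutation p-values come from rearranging the mice between groups, and for the 5 groups only within batches. The members and gene lists were chosen with earlier results of these data known. The text names members of a fixed list of special roles where tested, the 4 highest and 4 lowest at day 1 on either scale, and the 3 highest and 3 lowest at day 7, and values of some members are not reported here. Alternatives were other scalings, DESeq2 1.42.0, edgeR, no filter, batch as a block, leaving out mice or cells, and thinned cells.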

Additional observations from a re-analysis of the deposited data

Results flagged for a closer look

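The ATV:4D9 mice of day 1 and day 7, which share the ATV:RSV day 1 mice as controls, were compared by limma-voom. This test of day 7 against day 1 called 66.9% of all genes tested. Over all 82 members, 20 were higher and 38 lower at day 7, a part near that of all genes. The median log2 fold change of the members was -0.11, against 0.03 by library size alone and -0.02 after thinning cells. The direction over the members as a set thus depended on the scaling. Among genes named by rule, log2 fold changes of day 7 against day 1 were positive for Rps27 (1.02), Rps9 (0.63), Rps4x (0.39), Rpl10 (0.35) and Rpl7 (0.30). They were negative for Rps27l (-1.48), Rps2 (-1.24), Rpsa (-1.12), Rpl41 (-0.83), Rpl22l1 (-0.74), Rpl36al (-0.59), Rplp0 (-0.50), Rpl35 (-0.37), Rpl7l1 (-0.33), Rps27a (-0.27), Rps6 (-0.23) and Rplp1 (-0.20). Scaled by library size alone, Rpl35, Rps6 and Rplp1 no longer passed the threshold, and neither did Rplp1 after thinning cells. Groups of 3 mice were too small for a check of single mice against their group.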

How the results depend on the processing

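The shares of UMIs per mouse and per matched cell kept their direction in all 5 comparisons under every alternative, and leaving out 1 mouse moved the day 7 difference of whole libraries between 3.87 and 4.28 points. The small differences moved more without 1 mouse: at day 28 from 0.27 to 0.84 points for whole libraries (0.55 with all mice, lowest without ATV:4D9 day 28 replicate 1, highest without replicate 3), from 0.087 to 0.77 per matched cell (0.41) and from 0.098 to 0.76 in cluster 0 (0.40), with the same mice at the ends. At day 1 they ran from -0.84 to -0.15 in cluster 0 (-0.60, nearest 0 without ATV:4D9 day 1 replicate 3) and from -0.80 to -0.31 in cluster 1 (-0.53, nearest 0 without replicate 1). With cells thinned to equal UMIs the cluster 1 differences at day 28 and day 1 were 0.48 and -0.32 points. The day 28 difference in cluster 2 ran from -0.48 to 0.027 points without 1 mouse (0.027 without ATV:RSV replicate 1, against -0.18 with all mice). The number of members called at day 14 (43 by the main test) was 12 by library size alone, 12 after thinning cells, 73 with batch as a replicate block and 0 to 42 without 1 mouse. Members departing from the pool (9 at day 7, 2 at day 14) were 23 and 7 with batch as a block, and 6 to 20 and 1 to 5 without 1 mouse. In fits of whole libraries, batch as a block moved no other count of members by over 1.5 times (it was not run within clusters), and all members called without it at day 14 were among those called with it. The log2 fold change of Rpl7 at day 1 was 0.17 and turned to -0.073 by library size alone. By library size alone Rpl7l1, Rpl39 and Rpl39l also lost their day 1 calls. Over all genes, the 568 called at day 7 were 1199 by library size alone, 1014 with batch as a block, 871 by DESeq2, 334 without ATV:4D9 day 7 replicate 3 and 331 without ATV:RSV replicate 2. The 57 called at day 14 were 19 by library size alone, 21 after thinning, 122 with batch as a block, 132 by DESeq2, 0 and 30 without ATV:4D9 day 14 replicates 1 and 2, and 16 without ATV:RSV replicate 3. The 0 at day 28 were 14 by DESeq2 and 2 with batch as a block, and the 7679 departing from the pool at day 14 were 4311 without ATV:4D9 day 14 replicate 1. The causes were not tested. Rpl39l, at 1.69 to 4.68 CPM in ATV:RSV mice, and the day 14 comparison in cluster 2, with 74 to 165 cells per mouse, rest on few counts.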

Other observations

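Of 78 genes for proteins of the mitochondrial ribosome, a list added after values were seen, 76 rose at day 1 with a median log2 fold change of 0.82, when 34.7% of all genes rose. At day 7, 2 were called (3.98% of all genes), with a median of 0.02, and at day 14 it was 0, against 78 and 43 of the 82 cytosolic members on those days. From day 1 to day 7, 76 of 78 fell, with a median of -0.78 and 66.9% of all genes called.

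Rows with pseudogene names took up 0.02% to 0.03% of the ribosomal protein UMIs in each library.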
